A study of Mus musculus with 6 samples.

Results

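The unfolded protein response and the chaperones of the endoplasmic reticulum (ER) were read from 34 genes chosen by symbol, out of 37384 symbols in the count table. The genes fell into 21 ATF6/XBP1-type genes (15 for protein folding, 4 for ER-associated degradation and 2 for translocation into the ER), 4 sensors and transcription factors of the response, 7 PERK/ATF4-type genes and 2 helpers of collagen folding. All 34 passed the filter on low counts. The RNA came from adipocytes floated out of digested inguinal subcutaneous white adipose tissue (scWAT) of male mice at postnatal day 7, and each of the 6 libraries pooled 4 mice. The 3 L1L2-FF libraries came from mice with floxed alleles of both Hippo pathway kinases, Lats1f/fLats2f/f, and no Cre. The 3 libraries labelled L1L2-AKO carried the same floxed alleles and Adipoq Cre, which is driven by the adiponectin promoter and so acts in adipocytes, while RNA from any other cell carried along in the float is also counted. The comparison asks which genes differ in adipocytes when both kinases are targeted.

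The ER folds secreted and membrane proteins with the help of chaperones, and secretory cells such as the adipocyte, which releases adiponectin and matrix proteins, carry large amounts of them. When unfolded protein builds up, 3 sensors in the ER membrane signal to the nucleus. IRE1 (*Ern1*) splices the *Xbp1* mRNA and ATF6 is cut to free a transcription factor, and both routes raise chaperone and degradation genes, whereas PERK (*Eif2ak3*) phosphorylates eIF2α, lowers translation and raises ATF4 with its targets, among them CHOP (*Ddit3*). Counts per gene show neither *Xbp1* splicing, nor the cutting of ATF6, nor the phosphorylation of eIF2α, nor any protein.

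Total counts ran from 30548473 to 32107917 per library. *Lats1* was at 76.1, 94.3 and 78.4 CPM (counts scaled to library size and TMM factor) in L1L2-FF replicates 1 to 3 and at 38.9, 41.2 and 40.5 for the libraries labelled L1L2-AKO, a log2 fold change of -1.04 ± 0.12 (SE). *Lats2* went against the label, at 74.9, 85.7 and 68.5 CPM in L1L2-FF and 96.2, 126 and 135 CPM in the libraries labelled L1L2-AKO (log2 fold change 0.64 ± 0.16, edgeR adjusted p = 0.0278). This *Lats2* call was kept in only 2 of the 6 fits with a library left out (edgeR adjusted p up to 0.104). By RT-qPCR on adipocytes isolated from mice of these genotypes, the paper reports reduced mRNA of both kinases. Counts per whole gene do not show the deleted exons apart, and *Lats2* shared 41.2% of its 50-base stretches with the readthrough gene Gm49361, so every direction here refers to the libraries as labelled. Among the 34 genes, *Sec61b* (17.4%), *Hsp90b1* (9.76%), *Manf* (6.17%), *Eif2ak3* (5.71%), *Dnajb9* (5.50%) and *Fkbp10* (4.86%) shared the largest parts of their 50-base stretches with other genes, and their counts are uncertain to that extent. Gm43292, which shares with *Eif2ak3*, and Gm49361 have no row in the count table, and how reads of these shared stretches were counted is not known. Adipocyte markers were abundant in all libraries, for example *Fabp4* at 6211 to 9055 CPM, and none was at 0, while 7 of 15 were lower in the libraries labelled L1L2-AKO. The share of mitochondrially encoded counts was 10.6% to 11.5% in L1L2-FF and 7.85% to 9.71% in the libraries labelled L1L2-AKO.

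The ATF6/XBP1 branch is known for a promoter sequence, the ER stress element, in which a CCAAT box bound by NF-Y stands 9 bases from a CCACG bound by ATF6 or XBP1. Of the 34 genes, 30 had a promoter window in the RefSeq table for GRCm38.p6, from 250 bases before to 50 bases after the gene start, and *Atf6*, *Fkbp10*, *Hyou1* and *Manf* had none. The element, searched on both strands as CCAAT, any 9 bases and CCACG, was in 8 of the 19 windows of ATF6/XBP1-type genes, in 0 of the 7 windows of PERK/ATF4-type genes and in 0.119% of all 32851 windows of this length. The sites are printed in the sense of the gene with the element in capitals, and their spacing of 9 bases was fixed by the search. Whether the element bears on the changes was not tested: of the 8 genes with it, *Calr*, *Canx* and *Syvn1* did not pass the test between the groups, and the window of *Sdf2l1*, with the largest fold, held no match. In *Calr*, *Creld2* and the second *Hsp90b1* site the element runs in reverse, so that its CCAAT end reads ATTGG.
Hspa5, chr2:34772020-34772048, plus strand: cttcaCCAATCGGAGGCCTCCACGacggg
Hsp90b1, chr10:86705633-86705661, minus strand: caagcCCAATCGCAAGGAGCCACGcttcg
Hsp90b1, chr10:86705528-86705556, minus strand: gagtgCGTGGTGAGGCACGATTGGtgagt
Pdia6, chr12:17266486-17266514, plus strand: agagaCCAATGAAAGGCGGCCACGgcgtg
Dnajc3, chr14:118937822-118937850, plus strand: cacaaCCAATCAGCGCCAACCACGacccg
Creld2, chr15:88819515-88819543, plus strand: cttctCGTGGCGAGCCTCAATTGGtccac
Calr, chr8:84847070-84847098, minus strand: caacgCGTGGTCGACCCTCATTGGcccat
Canx, chr11:50325795-50325823, minus strand: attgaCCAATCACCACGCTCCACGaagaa
Syvn1, chr19:6046527-6046555, plus strand: cgcaaCCAATCGGCGGTAGCCACGggaac

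*Hsp90b1* was the only one of the 30 windows with the element at 2 places, and the 185 bases of its window that lie upstream of every GENCODE M21 model of the gene are shown with both in capitals.
Hsp90b1 promoter, chr10:86705510-86705694, minus strand: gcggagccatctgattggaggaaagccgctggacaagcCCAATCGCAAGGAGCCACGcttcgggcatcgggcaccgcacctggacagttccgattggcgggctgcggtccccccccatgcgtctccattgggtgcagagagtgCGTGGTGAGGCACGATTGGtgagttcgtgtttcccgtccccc
The element stood between 26 and 212 bases before the RefSeq start, and of these sites only that of *Hspa5* lay inside a longer GENCODE M21 gene model (GRCm38), which begins at chr2:34771970. The shorter ER stress element II (ATTGG, any base and CCACG, on both strands), a search added after the values had been seen, was in the windows of *Herpud1* and *Dnajb11* and in 0.0365% of all windows. The UPR element TGACGTGG was in no window of the 30 and in 0.676% of all windows. A match describes the letters of the window and is not evidence of binding.

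**Figure D1:**
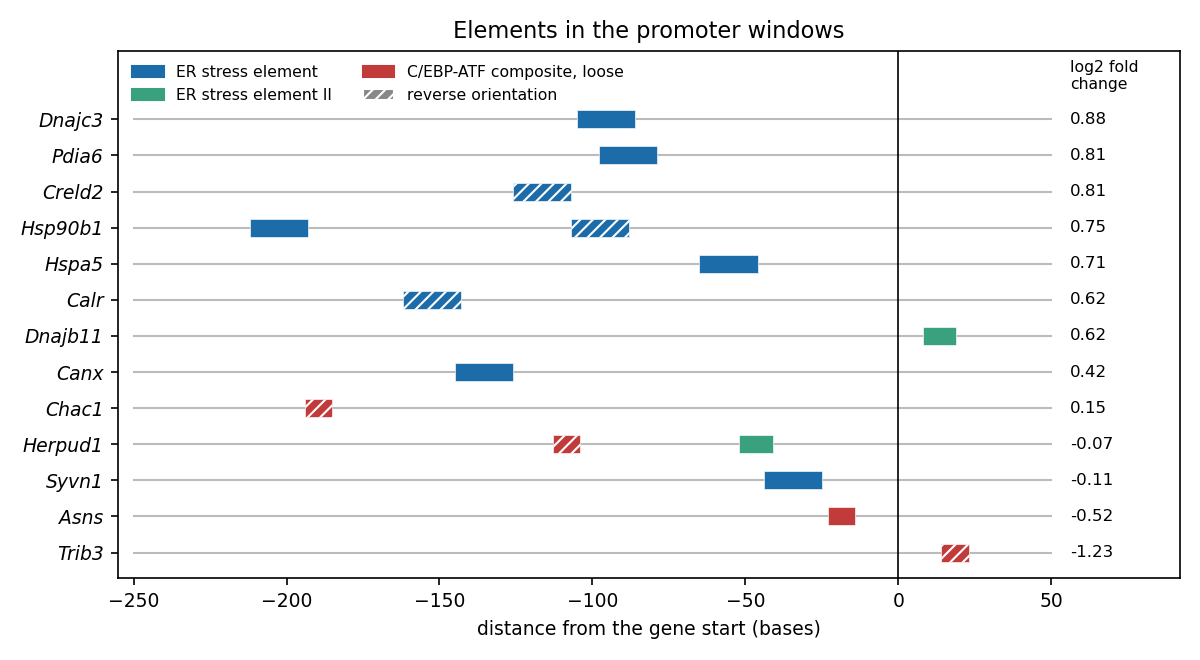
Position of each matched element, in bases from the RefSeq gene start (x axis), in the promoter windows of the 13 genes with a match; colours mark the kind of element, hatching the reverse orientation, and the number at the right is the log2 fold change of the gene in the libraries labelled L1L2-AKO over L1L2-FF. Genes with the ER stress element ran from -0.11 (*Syvn1*) to 0.88 (*Dnajc3*).

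Of the 34 genes, 17 differed between the groups, against 16.5% of all 15674 genes tested, and 25 did not overlap, against 36.4% of all. Of the 15 folding genes, 11 stood higher in the libraries labelled L1L2-AKO, 1 was lower and 3 did not pass the threshold (edgeR's quasi-likelihood test, Benjamini-Hochberg adjusted p under 0.05 over all genes tested). Among all genes tested, 9.28% were called higher and 7.18% lower. The median log2 fold change of the 15 was 0.75, against -0.02 over all genes tested. Summed over the 15 genes, the level was 3591, 3141 and 4100 CPM in L1L2-FF and 5759, 5352 and 5884 CPM in the libraries labelled L1L2-AKO. In 14 of the 15 every library labelled L1L2-AKO was above every L1L2-FF library, and in the remaining gene, *Dnajb9*, every one was below. Over all genes tested, 18.0% did not overlap with the libraries labelled L1L2-AKO above and 18.4% with them below.

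**Figure D2:**
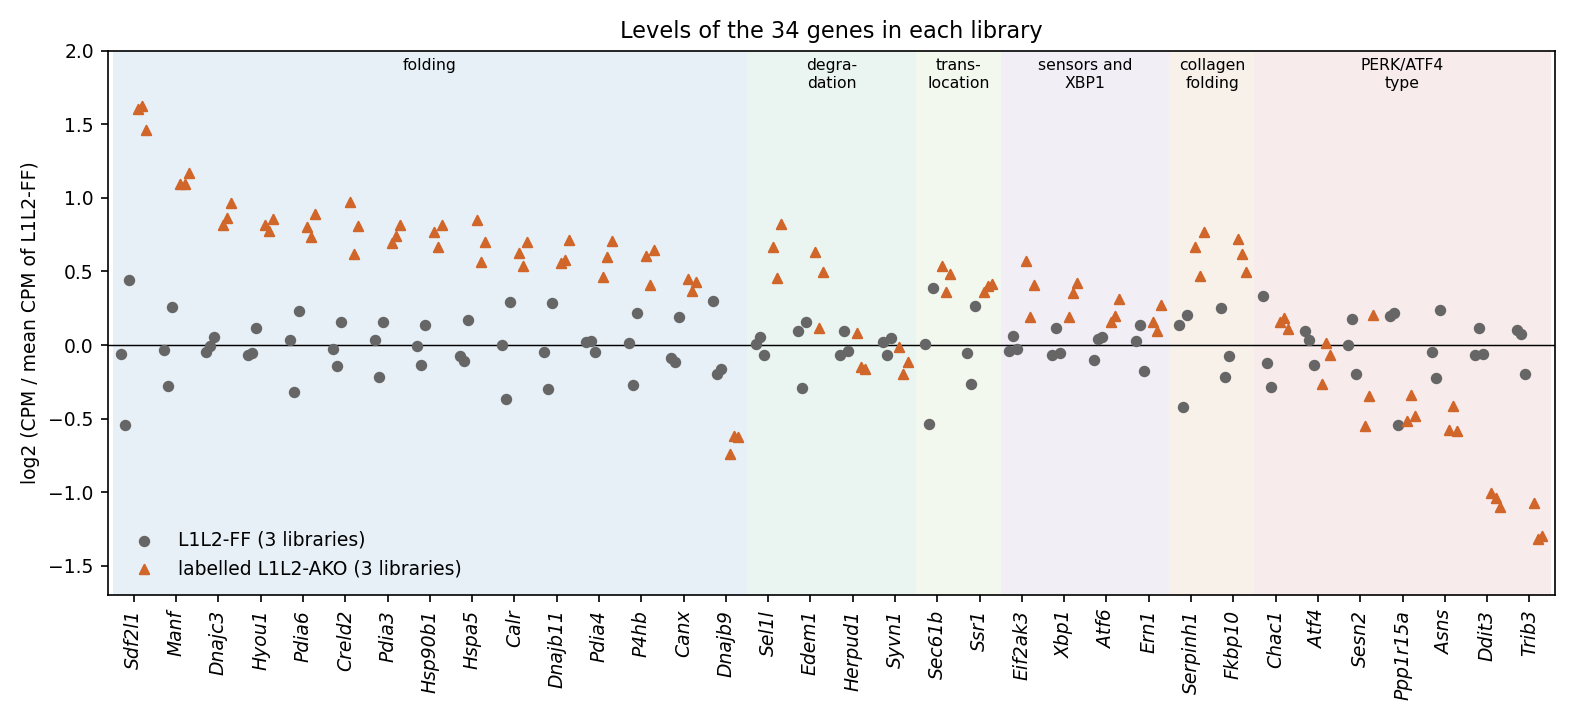
Level of each of the 34 genes in each library, as log2 of its CPM over the mean CPM of the 3 L1L2-FF libraries (y axis); circles are L1L2-FF, triangles the libraries labelled L1L2-AKO, and shading marks the role. In the folding genes the triangles stand above the circles in 14 of 15 genes, and in *Ddit3*, *Trib3* and *Asns* they stand below.

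*Hspa5* encodes BiP, the Hsp70 chaperone of the ER that also holds the sensors inactive. It was at 607, 592 and 718 CPM in L1L2-FF and at 1154, 946 and 1039 CPM in the libraries labelled L1L2-AKO. The lowest of these was above the highest L1L2-FF library, and the fold was 1.64 (log2 fold change 0.71 ± 0.16 SE, edgeR adjusted p = 0.0184). *Hsp90b1*, the ER Hsp90 known as GRP94, was at 316, 289 and 349 CPM in L1L2-FF and at 542, 504 and 559 CPM in the libraries labelled L1L2-AKO (0.75 ± 0.13, edgeR adjusted p = 0.00783). *Hyou1*, an Hsp110-type chaperone that acts as exchange factor for BiP, was at 61.8, 62.1 and 69.9 against 114, 111 and 117 CPM (0.82 ± 0.10, edgeR adjusted p = 0.00212). The groups stood apart in all of these, and the spread within each group, relative to its mean, was narrowest for *Hyou1*.

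The largest rises were in 2 helpers of BiP with lower counts. *Sdf2l1*, a partner of BiP and its J proteins, lies at chr16:17130138-17132383 (GRCm38, minus strand) and was at 5.49, 3.93 and 7.77 CPM in L1L2-FF and at 17.4, 17.7 and 15.7 CPM in the libraries labelled L1L2-AKO, a fold of 2.96 (1.57 ± 0.24, edgeR adjusted p = 0.00458). *Manf*, a secreted ER-resident factor that binds BiP, lies at chr9:106838312-106891979 (minus strand) and was at 56.3, 47.7 and 69.1 against 123, 123 and 130 CPM, a fold of 2.17 (1.12 ± 0.15, edgeR adjusted p = 0.00229). Neither gene overlapped between the groups, and their L1L2-FF libraries were spread more widely than those labelled L1L2-AKO. *Creld2*, another secreted gene of the response, was at 17.9, 16.5 and 20.3 against 35.9, 28.0 and 32.0 CPM (0.81 ± 0.14, edgeR adjusted p = 0.00727). *Creld2* thus rose at a level well under that of *Hspa5*, with no overlap.

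The J proteins, which deliver substrates to BiP and start its ATPase cycle, did not move together. *Dnajc3*, also called p58IPK and known as an inhibitor of PERK, was at 101, 105 and 109 CPM in L1L2-FF and at 185, 191 and 205 CPM in the libraries labelled L1L2-AKO (0.88 ± 0.11, edgeR adjusted p = 0.00171). *Dnajb11* was at 62.5, 52.6 and 78.6 against 94.9, 96.3 and 106 CPM (0.62 ± 0.16, edgeR adjusted p = 0.0316). Both rose, with tight values for *Dnajc3* and a wide L1L2-FF spread for *Dnajb11*. *Dnajb9*, known as ERdj4, a target of spliced XBP1 that represses IRE1, lies at chr12:44205559-44210326 (minus strand) and fell from 120, 85.2 and 87.3 CPM to 58.3, 63.5 and 63.4 CPM (-0.66 ± 0.15, edgeR adjusted p = 0.0222). The high L1L2-FF replicate 1 widened that gap: without it the log2 fold change was -0.49 (edgeR adjusted p = 0.0591), and the call was also lost without any 1 of the libraries labelled L1L2-AKO (adjusted p 0.0654 to 0.0786). The number of *Dnajb11* counts per *Dnajb9* count, a pair chosen after the values had been seen, was 0.520, 0.617 and 0.901 in L1L2-FF and 1.63, 1.52 and 1.67 for the libraries labelled L1L2-AKO, a ratio within each library that does not depend on scaling.

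Protein disulfide isomerases make and reshuffle disulfide bonds in the ER. *Pdia3*, which works with the lectin chaperones, was at 429, 360 and 465 CPM in L1L2-FF and at 676, 699 and 735 CPM in the libraries labelled L1L2-AKO (0.75 ± 0.15, edgeR adjusted p = 0.0116). *Pdia6* was at 198, 155 and 227 against 336, 321 and 358 CPM (0.81 ± 0.16, edgeR adjusted p = 0.0122). *Pdia4* was at 133, 134 and 127 against 181, 199 and 214 CPM (0.59 ± 0.11, edgeR adjusted p = 0.0109). These 3 isomerases rose by similar folds, 1.68, 1.75 and 1.51, with no overlap of the groups. *P4hb*, the founding isomerase and the β subunit of prolyl 4-hydroxylase, was at 535, 437 and 614 against 806, 701 and 828 CPM and missed the threshold (0.56 ± 0.17, edgeR adjusted p = 0.0567).

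The lectin chaperones calreticulin and calnexin hold glycoproteins until they are folded. *Calr* was at 629, 489 and 771 CPM in L1L2-FF and at 972, 914 and 1023 CPM in the libraries labelled L1L2-AKO (0.62 ± 0.19, edgeR adjusted p = 0.0576). *Canx* was at 319, 313 and 387 against 464, 438 and 458 CPM (0.42 ± 0.13, edgeR adjusted p = 0.0724). Neither passed the threshold, although neither overlapped, and the L1L2-FF replicate 3 was the highest of its group in both. Without that library *Calr*, *Canx* and *P4hb* passed (edgeR adjusted p = 0.0285, 0.0387 and 0.0404), as they did with DESeq2 on all 6 libraries (adjusted p = 0.00943, 0.0232 and 0.0103). Each passed in only that 1 of the 6 fits with a library left out, and in 4, 1 and 3 of the 10 other alternatives. With a library left out the edgeR adjusted p went up to 0.175, 0.250 and 0.168.

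Of the 21 ATF6/XBP1-type genes as a whole, 12 were higher and 1 was lower, against 9.28% and 7.18% of all genes tested. This count was 6 higher without L1L2-FF replicate 1, where *Hspa5*, *Pdia3*, *Pdia4*, *Pdia6*, *Dnajb11* and *Sel1l* lost the call at adjusted p 0.0520 to 0.120, and 17 higher without L1L2-FF replicate 3. *Hspa5* also lost it without replicate 1 (adjusted p = 0.0535) or replicate 3 (0.0558) of the libraries labelled L1L2-AKO, *Dnajb11* without any 1 of those libraries (0.0593 to 0.109) and *Pdia4* without their replicate 2 (0.0503). *Hsp90b1*, *Dnajc3*, *Sdf2l1*, *Manf*, *Creld2* and *Hyou1* passed with every library left out in turn.

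In the degradation machinery, which pulls misfolded proteins out of the ER for the proteasome, 1 of 4 genes was higher and 0 were lower. Over all genes tested 9.28% were called higher and 7.18% lower. At an unadjusted edgeR p under 0.05, 2 were higher (*Sel1l* and *Edem1*) and 0 lower, against 2423 and 2405 of all 15674 genes. With 4 genes such counts say little. *Sel1l*, the scaffold of the HRD1 ligase, was at 159, 165 and 152 CPM in L1L2-FF and at 252, 217 and 281 CPM in the libraries labelled L1L2-AKO (0.66 ± 0.13, edgeR adjusted p = 0.0126). *Syvn1*, which encodes the HRD1 ligase itself, was at 75.8, 71.3 and 77.2 against 74.2, 65.2 and 69.0 CPM (-0.11 ± 0.10, edgeR adjusted p = 0.545). The scaffold and its ligase thus differed in that the groups stood apart for *Sel1l* and overlapped for *Syvn1*, whose window holds the ER stress element printed above. *Herpud1*, a membrane partner of HRD1 with the ER stress element II in its window, was at 51.8, 58.0 and 52.8 against 57.5, 48.9 and 48.4 CPM (-0.07 ± 0.11, edgeR adjusted p = 0.734). *Edem1*, which hands mannose-trimmed glycoproteins to degradation, was at 211, 161 and 220 against 306, 214 and 278 CPM, with overlap (0.43 ± 0.18, edgeR adjusted p = 0.145).

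Of the translocation genes neither passed the threshold. *Ssr1*, a subunit of the translocon-associated complex, was at 170, 146 and 212 CPM in L1L2-FF and at 226, 233 and 235 CPM in the libraries labelled L1L2-AKO (0.39 ± 0.15, edgeR adjusted p = 0.120). *Sec61b*, a subunit of the SEC61 channel, was at 38.0, 26.1 and 49.6 against 55.1, 48.7 and 53.0 CPM (0.46 ± 0.21, edgeR adjusted p = 0.183). Only the second overlapped, through L1L2-FF replicate 3, without which both passed (edgeR adjusted p = 0.0314 and 0.0433). That was the only 1 of the 16 alternatives in which either passed. Without L1L2-FF replicate 1 the edgeR adjusted p was 0.308 and 0.349. *Sec61b* shared 17.4% of its 50-base stretches with other genes, mostly Gm10320, so its count is uncertain.

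**Figure D3:**
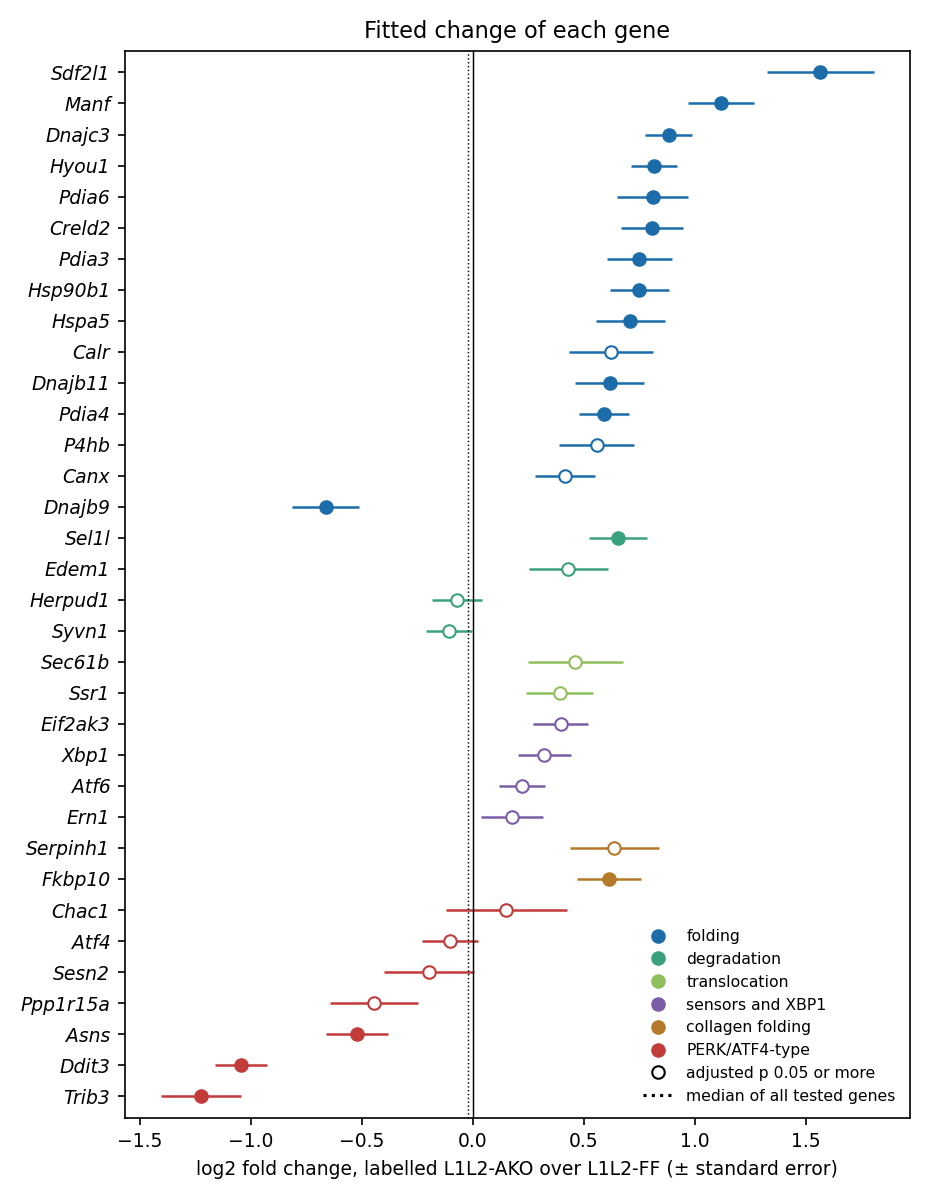
Fitted log2 fold change of each of the 34 genes, libraries labelled L1L2-AKO over L1L2-FF (x axis), with its standard error as a bar; filled points passed an edgeR adjusted p of 0.05, colours mark the role, and the dotted line is the median of all genes tested (-0.02). The filled points at the right are 11 folding genes, *Sel1l* and *Fkbp10*, and those at the left are *Dnajb9*, *Asns*, *Ddit3* and *Trib3*.

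Of the 4 sensor and transcription factor genes, 0 passed the threshold with edgeR and 0 with DESeq2, and 2 (*Xbp1* and *Eif2ak3*) had an unadjusted edgeR p under 0.05. Over all genes tested 16.5% were called by edgeR, so 0 of 4 says little. *Xbp1*, whose product drives the chaperone genes after splicing, was at 168, 191 and 170 CPM in L1L2-FF and at 201, 225 and 236 CPM in the libraries labelled L1L2-AKO (0.32 ± 0.12, edgeR adjusted p = 0.11). *Eif2ak3*, which encodes PERK, was at 31.6, 33.9 and 31.9 against 48.2, 37.0 and 43.1 CPM (0.40 ± 0.12, edgeR adjusted p = 0.0663). The groups did not overlap in either gene. *Atf6* was at 59.5, 65.7 and 66.5 against 71.3, 73.3 and 79.2 CPM, also without overlap (0.22 ± 0.10, edgeR adjusted p = 0.190). *Ern1*, which encodes IRE1, was at 14.3, 15.5 and 12.4 against 15.7, 15.1 and 17 CPM, with overlap (0.18 ± 0.14, edgeR adjusted p = 0.449).

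Of the 7 PERK/ATF4-type genes, 3 (*Ddit3*, *Trib3* and *Asns*) were lower, 0 were higher and 4 did not pass the threshold, with a median log2 fold change of -0.44. Over all genes tested 7.18% were lower and 9.28% higher, with a median of -0.02, so 0 higher of 7 says little. For higher calls, 0 genes also held with DESeq2, and 0 had an unadjusted edgeR p under 0.05. Summed over the 7 genes, the level was 515, 509 and 428 CPM in L1L2-FF and 356, 413 and 401 CPM in the libraries labelled L1L2-AKO, so the groups did not overlap but lay close.

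*Ddit3* encodes CHOP, a transcription factor linked to cell death under lasting stress and also to the block of adipocyte differentiation. It lies at chr10:127290774-127296288 (GRCm38, plus strand) and was at 27.9, 31.8 and 28.1 CPM in L1L2-FF and at 14.6, 14.3 and 13.7 CPM in the libraries labelled L1L2-AKO. Within each group these values were nearly level, and L1L2-FF was 2.06-fold higher (-1.05 ± 0.12, edgeR adjusted p = 0.00130). *Trib3*, a pseudokinase that CHOP and ATF4 raise and that binds AKT, was at 9.61, 9.43 and 7.80 against 4.25, 3.58 and 3.63 CPM, 2.34-fold higher in L1L2-FF (-1.23 ± 0.18, edgeR adjusted p = 0.00367). *Asns*, asparagine synthetase, was at 62.9, 55.6 and 76.7 against 43.6, 48.9 and 43.5 CPM (-0.52 ± 0.14, edgeR adjusted p = 0.0387). *Ddit3* and *Trib3* stayed past the threshold with each library left out, whereas *Asns* lost the call when any library but L1L2-FF replicate 2 was left out (edgeR adjusted p 0.0722 to 0.136).

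*Atf4* itself, the transcription factor that PERK raises mainly through translation, was at 218, 210 and 187 CPM in L1L2-FF and at 171, 207 and 196 CPM in the libraries labelled L1L2-AKO, with overlap (-0.10 ± 0.13, edgeR adjusted p = 0.649). *Ppp1r15a*, or GADD34, which brings a phosphatase to eIF2α, was at 153, 155 and 91.7 against 93.3, 105 and 95.6 CPM (-0.44 ± 0.20, edgeR adjusted p = 0.176). L1L2-FF replicate 3 alone lay with the other group, and without it *Ppp1r15a* passed (-0.66, edgeR adjusted p = 0.0120). That was the only 1 of the 16 alternatives in which *Ppp1r15a* passed, and without L1L2-FF replicate 1 the edgeR adjusted p was 0.430. *Sesn2*, a leucine sensor upstream of mTORC1, was at 40.7, 45.9 and 35.4 against 27.7, 32.0 and 46.9 CPM (-0.20 ± 0.20, edgeR adjusted p = 0.574). *Chac1*, which degrades glutathione, was low in all libraries, at 1.35 to 2.07 CPM or 42 to 65 counts (0.15 ± 0.27, edgeR adjusted p = 0.763). The groups overlapped in both, for *Sesn2* through replicate 3 of the libraries labelled L1L2-AKO.

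ATF4 and CHOP bind a C/EBP-ATF composite sequence. Its form TGATGNAAT was in none of the 30 windows and in 0.965% of all windows, on both strands. A looser form, TGATGNAAN, which contains the first and was added after the values had been seen, was in 4 of the 30 windows, 3 of them of PERK/ATF4-type genes, and in 3.95% of all windows. These sites are printed to set the matched genes that fell beside *Chac1*, with the match in capitals and, in *Trib3* and *Chac1*, in reverse. The site of *Trib3* lies after the RefSeq start and that of *Asns* inside a longer GENCODE M21 model.
Asns, chr6:7693219-7693237, minus strand: ccacaTGATGAAACttccc
Trib3, chr2:152344034-152344052, minus strand: tcaggTTTACATCAgccgg
Chac1, chr2:119351043-119351061, plus strand: ctgccGTTGCATCActcct

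Ratios within a library do not depend on scaling, and 2 pairs of a called riser and a called faller are given. *Hspa5* counts per *Ddit3* count were 21.7, 18.6 and 25.5 in L1L2-FF and 79.1, 66.2 and 75.9 for the libraries labelled L1L2-AKO. *Manf* counts per *Trib3* count were 5.86, 5.05 and 8.86 against 29.0, 34.3 and 35.7. The lowest ratio in the libraries labelled L1L2-AKO was 2.59 and 3.27 times the highest in L1L2-FF. These pairs were chosen after the values had been seen, from genes called in opposite directions, so the order of the groups was fixed by the choice and says nothing of the other genes of either branch.

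**Figure D4:**
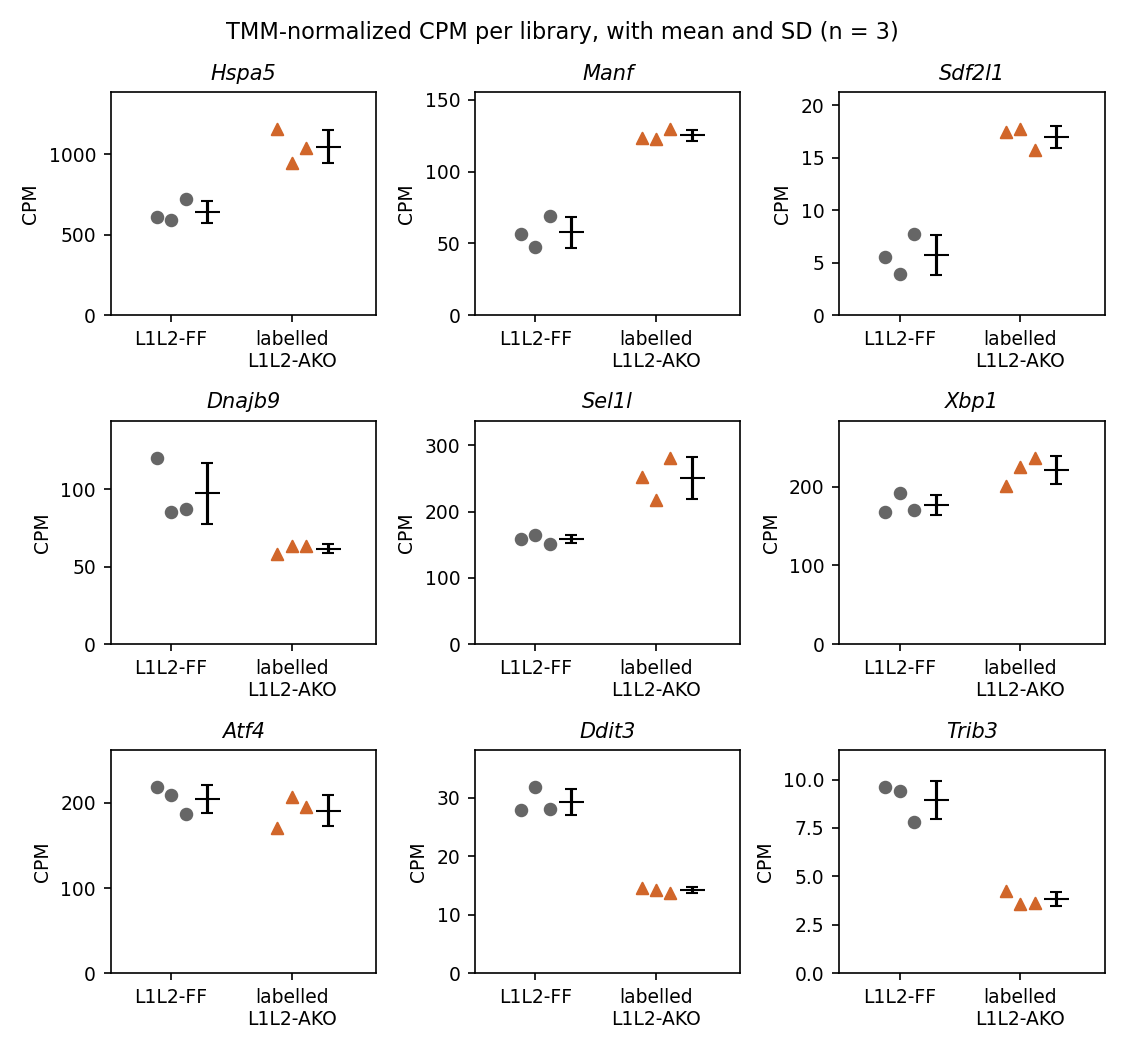
CPM (y axis, from 0) of 9 genes in each library, circles for L1L2-FF and triangles for the libraries labelled L1L2-AKO, with the mean and SD of 3 libraries in black. *Hspa5*, *Manf*, *Sdf2l1* and *Sel1l* are higher at the right, *Dnajb9*, *Ddit3* and *Trib3* lower, and *Atf4* overlaps.

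The collagen-folding helpers serve the triple helix. *Fkbp10*, or FKBP65, a prolyl isomerase of procollagen, was at 64.9, 46.8 and 51.6 CPM in L1L2-FF and at 89.9, 83.5 and 76.8 CPM in the libraries labelled L1L2-AKO (0.62 ± 0.14, edgeR adjusted p = 0.0240), a call that was lost without L1L2-FF replicate 3 or any 1 of the libraries labelled L1L2-AKO (adjusted p 0.0515 to 0.0840). *Serpinh1*, or HSP47, the collagen-specific chaperone, was at 872, 594 and 915 against 1260, 1096 and 1352 CPM (0.64 ± 0.20, edgeR adjusted p = 0.0653). Neither overlapped. *Col1a1*, the α1 chain of type I collagen, was at 2326, 2243 and 1612 against 3335, 3220 and 3868 CPM (0.75 ± 0.21, edgeR adjusted p = 0.0427). Most of the 16 markers of fibroblasts and progenitors went the other way: 3 were fitted above 0 and 13 below, with a median log2 fold change of -0.16. Of the 16, 2 were called higher and 2 lower (12.5% each, against 9.28% and 7.18% of all genes tested). Their summed levels were 9950 to 13260 against 11734 to 13029 CPM, overlapping.

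On a scale per kilobase of exon (RPKM), the highest mean levels in L1L2-FF were those of *Serpinh1* (325 ± 71.3, SD), *Calr* (219 ± 49.0), *P4hb* (185 ± 31.0), *Hspa5* (151 ± 16.3) and *Pdia3* (133 ± 17), in which neighbours in this order differed by less than their summed SDs. *Atf4* followed at 86.9 ± 6.94 RPKM. *Trib3* (4.21 ± 0.469), *Ern1* (1.72 ± 0.187) and *Chac1* (1.01 ± 0.231) were the lowest. The genes that rose most, *Sdf2l1* (5.17 ± 1.74) and *Manf* (16.4 ± 3.06), were thus among the lower ones in L1L2-FF, and in the libraries labelled L1L2-AKO they stood at 15.3 ± 0.957 and 35.5 ± 1.07 RPKM.

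The wider machinery around these genes was read from lists of other genes. Of 32 other ER folding enzymes and chaperones tested, 7 were higher (21.9%) and 0 lower, with a median log2 fold change of 0.25. *Calu*, a calcium-binding protein of the secretory route, was at 566, 464 and 653 CPM in L1L2-FF and at 895, 910 and 1103 CPM in the libraries labelled L1L2-AKO (0.79 ± 0.18), *Pdia5* changed by 0.74 ± 0.14 and *Dnajc1* by 0.51 ± 0.13 on the log2 scale. Of 27 other degradation genes 2, *Ube2j1* and *Faf2*, were higher (7.41%) and 0 lower. Of 33 other genes of translocation and N-glycosylation 6 were higher (18.2%) and 0 lower, among them *Tram2*, a translocon-associated protein linked to collagen synthesis, at 27.9, 23.5 and 23.4 against 49.8, 48.7 and 55.9 CPM (1.05 ± 0.12), and the channel subunit *Sec61a1* (0.61 ± 0.12). For the lower calls of these lists, 0 genes also had an unadjusted edgeR p under 0.05, and they were not counted with other tools. Over all genes tested 9.28% were higher and 7.18% lower, and the share higher in the degradation list was near the first of these.

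Of 23 genes of procollagen folding and export, 10 were higher (43.5%) and 1, *Klhl12*, was lower (4.35%). Over all genes tested the shares were 9.28% and 7.18%. The prolyl hydroxylases led: *P3h2* was at 4.82, 4.73 and 3.61 CPM in L1L2-FF and at 13.2, 39.3 and 46.3 CPM in the libraries labelled L1L2-AKO (2.91 ± 0.43), and *P4ha2* at 23.9, 18.1 and 22.4 against 66.7, 114 and 135 CPM (2.29 ± 0.26). *P4ha1* changed by 1.48 ± 0.16. In all of these the libraries labelled L1L2-AKO were above every L1L2-FF library, and replicate 1 was the lowest of them.

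Of 24 other sensors, eIF2α regulators and IRE1 partners, 3 were higher and 1, *Bcl2l11*, was lower, or 12.5% and 4.17%, near the 9.28% and 7.18% of all genes, with a median log2 fold change of 0.06. *Creb3l1*, or OASIS, an ATF6-like factor of collagen-secreting cells, was at 23.5, 21 and 24.5 against 54.9, 61.7 and 64.7 CPM (1.39 ± 0.12). *Creb3*, of the same family, was at 28.5, 28.3 and 40.0 against 63.9, 64.3 and 75.0 CPM (1.07 ± 0.16). Thus relatives of *Atf6* were higher with edgeR adjusted p = 0.000457 and 0.00403, while *Atf6* did not pass; whether they differed from *Atf6* was not tested. *Casp12*, an ER-associated caspase, was at 13.9, 16.8 and 14.8 against 18.4, 44.7 and 47.4 CPM (1.28 ± 0.32).

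Other ATF4 and CHOP targets were mostly not called. Of 42 of these, 6 were higher (14.3%) and 2, *Atf3* and *Cebpg*, were lower (4.76%), with a median log2 fold change of 0.18. Over all genes tested 9.28% were higher and 7.18% lower, so calls on both sides are not particular to this list. *Slc7a5*, the leucine transporter LAT1, was at 6.45, 7.85 and 10.7 CPM in L1L2-FF and at 31.2, 28.1 and 36.7 CPM in the libraries labelled L1L2-AKO (1.94 ± 0.21). *Stc2*, stanniocalcin 2, was at 5.81, 4.24 and 5.61 against 17.6, 13.8 and 14.3 CPM (1.55 ± 0.19). *Atf3* moved the opposite way, from 123, 101 and 73.4 to 45.5, 34.9 and 26.1 CPM (-1.48 ± 0.24). The groups did not overlap in these 3, which were named for the largest called changes of the list.

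**Figure D5:**
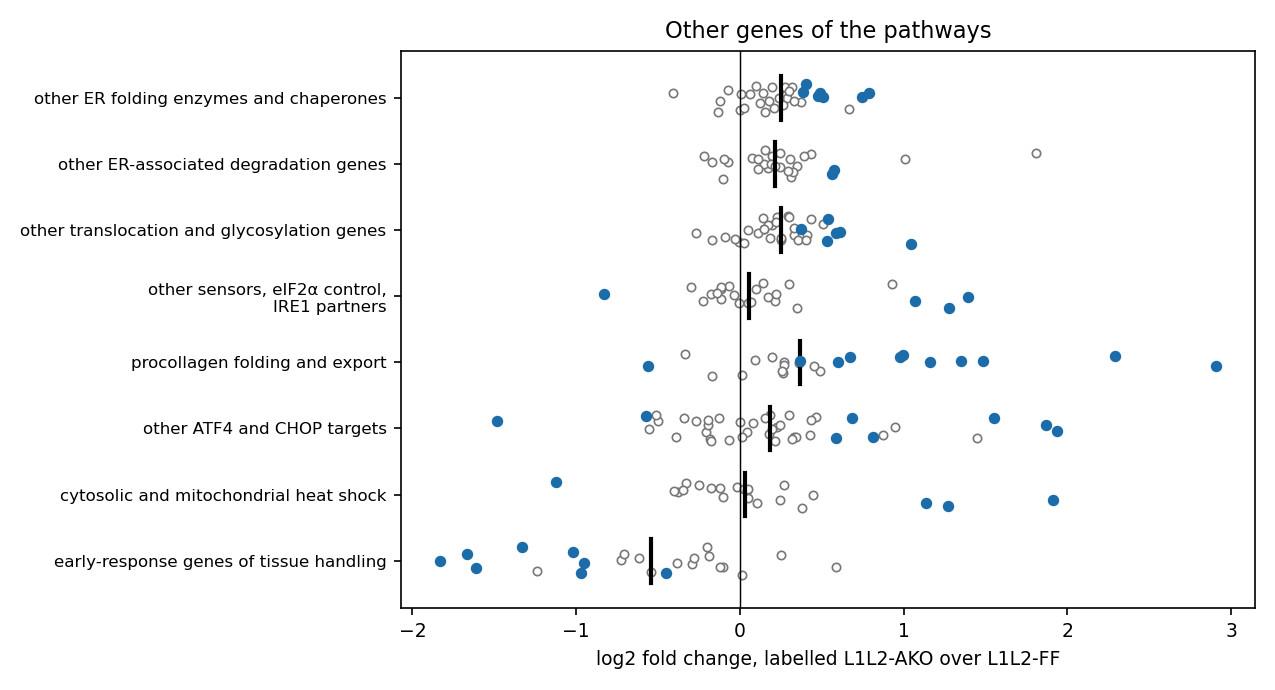
Log2 fold change, libraries labelled L1L2-AKO over L1L2-FF (x axis), of each tested gene in 8 lists; filled points passed an edgeR adjusted p of 0.05 and black bars are list medians. The medians run from -0.54 for early-response genes to 0.37 for procollagen folding and export, and the ATF4 and CHOP targets have filled points on both sides of 0.

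Markers of other cell types and of tissue handling were read beside all genes tested, of which 9.28% were called higher and 7.18% lower. Of 23 early-response genes that tissue handling is known to induce, 8 were lower and 0 higher (0 also at an unadjusted edgeR p under 0.05), with summed levels of 6455 to 10344 CPM in L1L2-FF and 4633 to 5777 CPM in the libraries labelled L1L2-AKO and none at 0. *Egr2*, for example, was at 96.3, 85.9 and 75.1 against 27.0, 24.2 and 21.1 CPM. The part of these genes in the fall of *Ddit3*, *Trib3*, *Asns* and *Atf3* was not tested. Of 14 macrophage markers 13 were higher, with summed levels of 287 to 549 CPM against 1033 to 1146 CPM and none at 0, for example *Mrc1* at 68.8, 96.3 and 49.3 against 239, 288 and 240 CPM. Of 15 adipocyte markers 7 were lower and 0 higher (0 also at an unadjusted edgeR p under 0.05), with summed levels of 33054 to 40277 against 28856 to 37508 CPM. Their part in the rise of the chaperone genes was not tested, and in such bulk samples fewer cells of a type and less RNA per cell cannot be told apart. Plasma cells, which are rich in ER, were scarce in both groups: *Jchain* had 2 to 8 counts per library, and of 10 tested markers of B and plasma cells 0 were called by edgeR, with 2 at an unadjusted p under 0.05 and summed levels of 36.2 to 54.0 against 39.0 to 44.7 CPM. Of 8 Schwann cell markers 5 were lower and 1 was higher, with 7 fitted below 0 and a median log2 fold change of -1.69. Their summed levels overlapped, at 821 to 1673 against 753 to 1383 CPM. Of 9 markers of mural cells 2 were lower and 1 higher (1581 to 2002 against 1544 to 1705 CPM), and of 10 endothelial markers 1 was lower (1985 to 2662 against 1175 to 2547 CPM). Of 9 tested T and NK cell markers 0 were called by edgeR, with 2 higher at an unadjusted p under 0.05 and all 9 fitted above 0 (5.12 to 18.1 against 11.9 to 26.5 CPM). The part of these cells in the results was not tested.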

How the data were processed

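The authors sequenced oligo(dT)-selected mRNA as paired ends on a BGISEQ-500, aligned it to mm10 with HISAT2 (2.1.0) and named StringTie (1.3.5), and deposited raw counts per gene symbol. The annotation, the counting program and its strand setting are not given in the sources used here, so reads of genes overlapping on opposite strands may not be separated. Examples are *Hsp90b1* with 1810014B01Rik, *Fkbp10* with Nt5c3b, and *Manf* with 4930524O07Rik and Dcaf1. The deposited counts were fitted over all genes with edgeR 4.0.16 (quasi-likelihood, TMM, default filterByExpr, Benjamini-Hochberg threshold 0.05, two-sided) in R 4.3.3, with genotype as the only term. DESeq2 1.42.0, limma 3.58.1 (voom), other scalings and filters, a replicate block and leaving out each library were alternatives, and the fitting code was tested on simulated data. CPM are TMM-scaled, SE is that of the log2 fold change, and RPKM used exon lengths of GENCODE M21 (GRCm38), the build of mm10. Depth was 30548473 to 32107917 counts per library, and replicates differed by more than sampling noise. With 3 against 3 libraries an exact permutation test cannot go below p = 0.1, so none was used. The libraries are separate pools of 4 mice.

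All 34 genes were named. Of the other lists, the 3 genes with the largest called change (average log2 CPM at or above 3), and the most abundant markers, could be named; *Bcl2l11*, *Klhl12*, *Cebpg* and *Jchain* were named after their values had been seen. The genes and lists were chosen with earlier results of these data known. Promoter windows came from RefSeq (GRCm38.p6).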

Additional observations from a re-analysis of the deposited data

How the results depend on the processing

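The direction held for all 34 genes in all 16 alternatives, and of 544 recomputed values 500 kept their side of the threshold, 26 lost the call and 18 gained it. Of the 17 called genes 8 kept the call in every alternative. With each library left out, the ATF6/XBP1-type genes gave 6 to 17 higher and 0 to 1 lower, the PERK/ATF4-type genes 0 higher and 2 to 3 lower, the collagen-folding helpers 0 to 1, all 34 genes 9 to 21 calls, and all genes tested 1281 to 2845 calls (777 to 1552 higher, 467 to 1293 lower) against 2580 (1455 higher, 1125 lower). The causes were not tested. The collagen-folding helpers gave 2 calls, in place of 1, with library size alone, with DESeq2, with no filter and with the replicate block, *Serpinh1* being added.

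The replicate numbers are not stated to mark a shared litter or day. The deviations of same-numbered libraries from their group means correlated at 0.188, 0.255 and -0.05. With 3 libraries per group such values cannot decide whether same-numbered libraries share more than a number. Not every library correlated best with its own number. The replicate block gave 14 higher ATF6/XBP1-type genes, 2 lower PERK/ATF4-type genes and 19 calls in all 34 genes: *Calr*, *P4hb* and *Serpinh1* gained the call and *Asns* lost it (adjusted p = 0.0650). DESeq2 gave 15, 3 and 21. Genes at low counts, such as *Chac1*, have wide errors at this depth.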

Other observations

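Of 22 cytosolic and mitochondrial heat shock genes tested, the libraries labelled L1L2-AKO were higher in 3 (13.6%; all genes 9.28%) and lower in 1, *Dnajb1* (4.55%; all genes 7.18%), with a median log2 fold change of 0.03. Whether this list differed from the ER chaperones was not tested. *Cryab*, a small heat shock protein, was at 77.8, 59.6 and 98.7 CPM in L1L2-FF and at 283, 245 and 360 CPM in the libraries labelled L1L2-AKO (1.91 ± 0.22 SE, edgeR adjusted p = 0.00141). *Hsph1*, the cytosolic Hsp110, was at 22.1, 23.9 and 31.4 against 56.6, 63.0 and 67.1 CPM (1.27 ± 0.15), and *Hspb1* changed by 1.14 ± 0.16. The groups did not overlap in these 3.

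The ER stress element was also in the promoter windows of 29 other genes, of which 11 were tested. Of these, *Spats2l* was higher and *Acacb* was lower (9.09% each), with a median log2 fold change of 0.17 over the 11. This was near the shares of all tested genes with a promoter window, 9.71% higher and 7.59% lower, with a median of -0.02. *Spats2l* and *Acacb* were named after their values had been seen.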
